A study of Mus musculus with 8 samples.

Results

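The fibroblast growth factor (FGF) family was followed in whole uterus and whole maternal brain of pregnant mice on day 4 of gestation. Its members were all genes of the count table whose symbol is Fgf, Fgfr, Fgfbp or Fgfrl followed by a number, without the Fgfr1op genes, together with Frs2, Frs3, Klb, Spry1, Spry2 and Spry4. The rule gave 34 of the 19884 genes in the table, namely 17 secreted ligands, 4 intracellular FGF-like factors, 5 receptor genes, 2 binding proteins, 1 co-receptor, 2 adapters and 3 sprouty inhibitors. Fgf4 was not analysed here. The animals were untreated wild-type C57BL/6J females, 6 to 10 weeks old, which had been mated with fertile males and carried blastocysts. There were 4 uterus and 4 brain libraries, each from 1 animal and made from total RNA after removal of ribosomal RNA. Nothing in the labels says that uterus and brain libraries of the same number came from the same mouse. No other day, non-pregnant state or isolated cell type was measured, so the comparison is between organs only.

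Secreted FGFs bind heparan sulfate in the matrix and activate the receptor tyrosine kinases FGFR1 to FGFR4, which signal through the adapter FRS2 to the RAS and MAP kinase cascade. Sprouty proteins act as feedback inhibitors of that cascade, and endocrine FGFs need a klotho protein as co-receptor. FGF11 to FGF14 are not secreted and bind voltage-gated sodium channels inside neurons and other excitable cells. In the mouse uterus, FGFs made by stroma stimulate the epithelium through its receptors, and the progesterone-induced factor Hand2 lowers their expression. In the brain, Fgf1 is a neuronal ligand and Fgfr3 is best known from astrocytes.

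Uterus libraries held 35394603 to 40254254 counts and brain libraries 40115616 to 47790178. Levels are in CPM, counts scaled to a common library size that TMM adjusts for composition. In a single library 3 counts, about the upper 95% counting limit for a reading of 0, equal 0.0692 to 0.0810 CPM. Summed over 5 neuronal markers, uterus held 2.19 to 4.76 CPM and brain 5485 to 5646. Summed over 4 markers of uterine epithelium, uterus held 530.5 to 642 CPM and brain 5.56 to 8.87. The organ labels therefore fit their markers. Markers of the preimplantation embryo summed to 0 to 0.151 CPM in uterus and 0 to 0.254 in brain, with Pou5f1 at 0 counts in all 8 libraries. Among counts of 1 to 10, 65.5% were even numbers, and 4389 entries were a count of 2 against 1796 of 1. Counting intervals and limits treat each count as independent and can therefore be too narrow. In whole organs, fewer cells of a type and less RNA per cell cannot be told apart.

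Promoter windows were read for the members that carry the main contrasts, namely a receptor and a sprouty gene higher in uterus (Fgfr2 and Spry1), their counterparts higher in brain (Fgfr3 and Spry2), and 2 of the intracellular factors with a large difference toward brain (Fgf12 and Fgf13). Each is the 250 bases before an annotated start in RefSeq GRCm38.p6, 5′ to 3′ on the gene's strand. Windows that touch an exon of the same gene were left out, and where several remained the one with most CpG was taken. By this rule the windows of Fgfr2, Fgfr3, Fgf12 and Fgf13 lie inside the annotated span of their genes. For Fgfr3, the window at the start of that span touched an exon and was left out. The windows of Spry1 and Spry2 lie directly before their genes. Capitals mark exact matches on either strand to the GC box, which reads GGGCGG, the TATA box as the 6 letters TATAAA, the CCAAT box, the left part of the RE1 element (CAGCACC), the ETS factor site (CCGGAAGT) and the cyclic AMP element (TGACGTCA). No printed match overlaps one to another motif, and the 2 GC boxes of Fgfr3 share 1 base.
Fgfr2: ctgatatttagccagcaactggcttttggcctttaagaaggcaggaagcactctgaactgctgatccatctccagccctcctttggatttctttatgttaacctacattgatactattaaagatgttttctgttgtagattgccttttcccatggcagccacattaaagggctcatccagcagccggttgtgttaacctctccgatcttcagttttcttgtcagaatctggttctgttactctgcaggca
Spry1: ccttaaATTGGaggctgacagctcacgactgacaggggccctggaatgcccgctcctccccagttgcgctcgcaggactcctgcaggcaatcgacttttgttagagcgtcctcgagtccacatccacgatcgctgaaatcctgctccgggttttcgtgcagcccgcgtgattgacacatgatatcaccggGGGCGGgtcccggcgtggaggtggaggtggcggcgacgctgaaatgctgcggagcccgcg
Fgfr3: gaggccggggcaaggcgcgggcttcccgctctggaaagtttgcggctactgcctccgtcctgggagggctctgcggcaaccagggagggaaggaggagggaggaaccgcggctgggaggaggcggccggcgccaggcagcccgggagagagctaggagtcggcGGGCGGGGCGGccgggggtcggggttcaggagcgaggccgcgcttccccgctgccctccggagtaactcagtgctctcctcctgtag
Spry2: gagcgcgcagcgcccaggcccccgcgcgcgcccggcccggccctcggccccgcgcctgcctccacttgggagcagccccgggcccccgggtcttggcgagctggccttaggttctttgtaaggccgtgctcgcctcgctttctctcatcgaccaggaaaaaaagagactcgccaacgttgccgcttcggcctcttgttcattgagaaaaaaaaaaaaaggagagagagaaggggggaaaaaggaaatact
Fgf12: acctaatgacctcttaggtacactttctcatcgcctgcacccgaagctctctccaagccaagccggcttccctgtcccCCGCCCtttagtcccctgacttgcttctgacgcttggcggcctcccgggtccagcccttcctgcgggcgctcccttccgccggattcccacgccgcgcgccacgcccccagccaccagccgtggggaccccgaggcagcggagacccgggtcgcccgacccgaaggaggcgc
Fgf13: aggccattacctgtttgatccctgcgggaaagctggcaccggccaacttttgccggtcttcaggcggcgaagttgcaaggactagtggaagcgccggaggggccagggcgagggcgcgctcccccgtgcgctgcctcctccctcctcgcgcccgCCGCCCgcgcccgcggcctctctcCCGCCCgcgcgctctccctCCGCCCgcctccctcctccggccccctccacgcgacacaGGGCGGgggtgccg
The windows lie at chr7:130266809-130267058, minus strand for Fgfr2, chr3:37639697-37639946, plus strand for Spry1, chr5:33722056-33722305, plus strand for Fgfr3, chr14:105896820-105897069, minus strand for Spry2, chr16:28564952-28565201, minus strand for Fgf12 and chrX:59134437-59134686, minus strand for Fgf13. They hold 2 CpG in Fgfr2, 23 in Spry1, 24 in Fgfr3, 23 in Spry2, 24 in Fgf12 and 31 in Fgf13, against a median of 6 over the 32841 windows of the RefSeq table. That median is over windows not chosen for CpG. For Fgf12 and Fgf13, another window clear of exons held 18 and 2. Over all 33 windows found for members the median was 15. A GC box stood in 20 of the 33 windows found for 26 members and in 32.7% of all windows. The CCAAT box stood in 10 of 33 (33.9% of all), the TATA box in 2 (12.4%), the ETS site in 2 (2.88%), the RE1 part in 1, of Fgf18 (5.73%), and the cyclic AMP element in 0 (1.55%). These matches describe letters and do not show binding.

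The FGF family was mostly higher in brain. Of the 34 members, 29 passed the filter on low counts, and edgeR called 5 of them higher in uterus (Fgf2, Fgf7, Fgfr2, Fgfr4 and Spry1), 21 higher in brain and left 3 uncalled (Fgfbp3, Fgfrl1 and Frs2). Over all 16074 genes tested, 87.0% were called, 43.5% higher in uterus and 43.6% higher in brain. Past a 2-fold change lay 1 member toward uterus and 15 toward brain. Of all genes 49.3% passed that test, 23.5% toward uterus and 25.8% toward brain. The median log2 fold change, uterus over brain, was -1.45 over the tested members and 0.01 over all genes. Of the 29, 6 had under 10 counts in every uterus library and 1, Fgfr4, in every brain library. These passed the filter only through the organ in which they were higher and had to differ. Fgf14, Fgf17 and Klb had under 10 counts in part of the uterus libraries, so they relied on brain in part to pass. The organs did not overlap over the 8 libraries for 26 of the 29 members, and for 84.1% of all genes. At 1 CPM or more in all 4 libraries, 17 members were detected in uterus and 22 in brain, and all 17 of the uterus were among those of the brain.

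**Figure D1:**
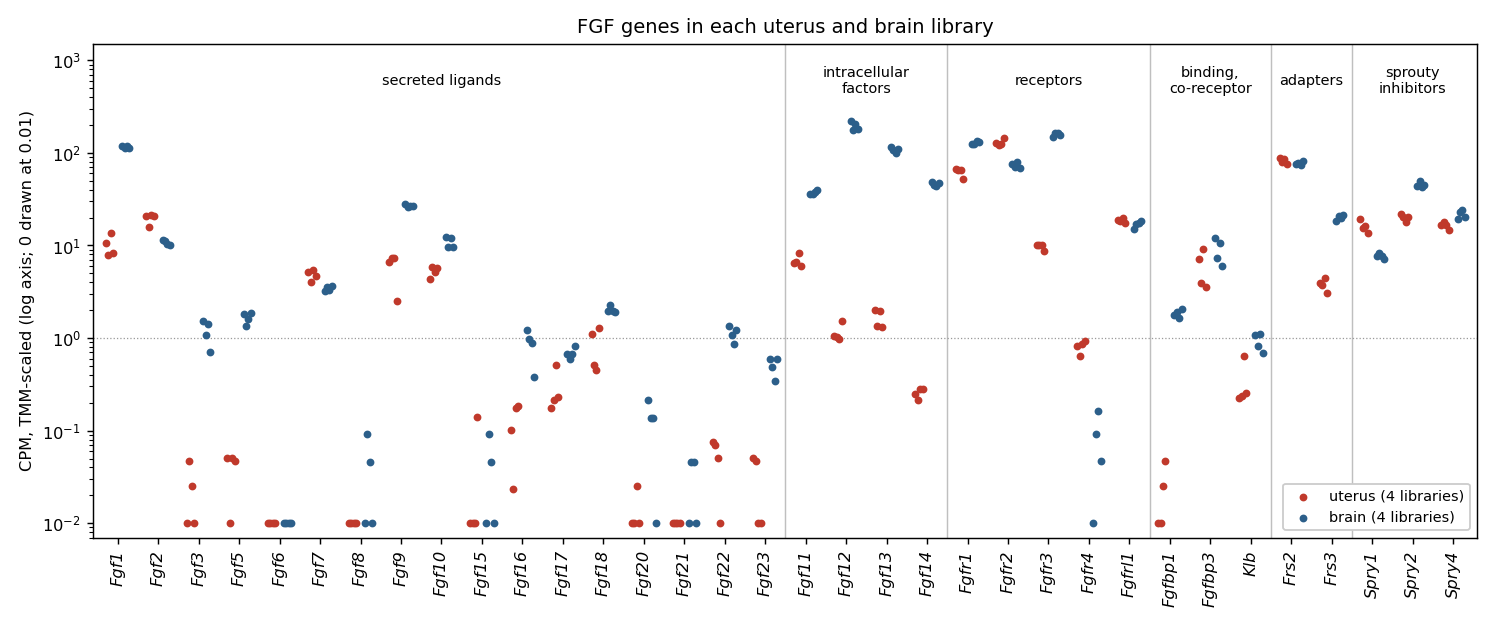
CPM (log axis, 0 drawn at 0.01) of the 34 FGF genes in each of the 4 uterus and 4 brain libraries, 1 point per library, with the 1 CPM detection limit as a dotted line. Only Fgf2, Fgf7, Fgfr2, Fgfr4 and Spry1 have all uterus points above all brain points, while Fgf12, Fgf13 and Fgf14 show the widest gaps toward brain among genes above 10 CPM in brain.

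Of the 17 secreted ligands, 12 were tested, 2 of them called toward uterus and 10 toward brain. Of all genes tested, 43.5% were called toward uterus and 43.6% toward brain. Fgf3, Fgf5, Fgf16, Fgf22 and Fgf23 had under 10 counts in every uterus library. They passed the filter only through brain and had to differ. The FGF1 subfamily divided between the organs. Fgf2, basic FGF, a mitogen stored in the matrix (ENSMUSG00000037225, chromosome 3, 37348346 to 37410108), stood at 20.7, 15.9, 21.2 and 20.7 CPM in uterus libraries 1 to 4 and 11.6, 11.3, 10.3 and 10 in brain libraries 1 to 4. All uterus libraries lay above all brain libraries, with library 2 the lowest of the uterus. The log2 fold change was 0.86 ± 0.11 (± SE; edgeR adjusted p = 3.0e-05), a 1.81-fold difference that did not pass the test against 2-fold. Exons of Fgf2 share 9.44% of their bases with Nudt6 on the opposite strand, and the strand setting of the counting is not given in the sources used here. Fgf1, acidic FGF, which binds all FGF receptors (ENSMUSG00000036585, chromosome 18, 38838673 to 38929472), stood at 10.6, 7.97, 13.8 and 8.37 CPM in uterus and 118, 112, 118 and 113 in brain. Brain was 11.4-fold higher (-3.51 ± 0.16, adjusted p = 7.1e-09), and the organs were far apart in every library.

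The FGF7 subfamily, whose best known members are stromal ligands for the epithelial form of FGFR2, was also divided. Fgf7, keratinocyte growth factor (ENSMUSG00000027208, chromosome 2, 126034658 to 126091185), stood at 5.16, 4.02, 5.43 and 4.64 CPM in uterus and 3.18, 3.55, 3.28 and 3.69 in brain (0.49 ± 0.14, adjusted p = 0.00675). The organs did not overlap, but the gap between the lowest uterus and the highest brain library was small. Fgf10, needed in the mouse for lung and limb buds (ENSMUSG00000021732, chromosome 13, 118669791 to 118792115), stood at 4.36, 5.79, 5.17 and 5.71 CPM in uterus and 12.3, 9.59, 12 and 9.51 in brain, in the opposite direction (-1.04 ± 0.14, adjusted p = 4.1e-05; 0.316 against 2-fold). Fgf22, an organizer of synapses in mouse brain, had 8 counts over the 4 uterus libraries and 186 over the 4 brain libraries (-4.45 ± 0.47). Fgf3, an inner ear ligand, had 3 counts in uterus and 195 in brain, a ratio of brain to uterus of 64.5 (95% interval 21.7 to 315). Its fitted log2 fold change of -5.80 moved to -6.72 without uterus library 2, which held 2 of the 3 uterus counts.

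Among ligands of the FGF9 and FGF8 subfamilies every tested gene was higher in brain, beside 43.6% of all genes. Only 2 genes of each subfamily were tested, Fgf9 and Fgf16 in the first and Fgf17 and Fgf18 in the second. Fgf16 passed the filter only through brain and had to differ. Fgf9, which acts on FGFR3 and other c-type receptors (ENSMUSG00000021974, chromosome 14, 58070547 to 58112720), stood at 6.65, 7.24, 7.41 and 2.52 CPM in uterus and 28.1, 26, 27 and 26.5 in brain (-2.18 ± 0.27, adjusted p = 2.8e-05). Uterus library 4 was far below the other uterus libraries, and brain libraries lay close together. Fgf18, a ligand known from bone and lung growth (ENSMUSG00000057967, chromosome 11, 33117430 to 33147400), stood at 1.11, 0.517, 0.457 and 1.28 CPM in uterus and 1.97, 2.26, 1.94 and 1.89 in brain (-1.26 ± 0.33, adjusted p = 0.00451; 0.165 against 2-fold). Within the uterus, Fgf18 was highest in library 4, where Fgf9 was lowest. In that library the 4 smooth muscle markers summed to 2697 CPM, against 2973 to 3500 in the others, with Cnn1, Des and Myh11 the lowest of the 4 libraries and Actg2 not. The 4 epithelial markers summed to 642 CPM there, against 530.5 to 603, with Krt8 and Cdh1 the highest of the 4 libraries and Epcam and Krt18 within the range of the others. The 3 gland markers, at 69.9 CPM there, lay within the 59.1 to 91.9 of the others, and the part of these cell types in the result was not tested. Without uterus library 4 the log2 fold change of Fgf9 was -1.91.

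The remaining ligands were scarce in both organs. Fgf16 and Fgf17 were higher in brain, with 0.0235 to 0.186 CPM in uterus and 0.378 to 1.21 in brain for Fgf16, and 0.176 to 0.507 in uterus and 0.600 to 0.828 in brain for Fgf17. Fgf5, which ends hair growth, had 6 counts in uterus and 273 in brain (-5.39 ± 0.43). The phosphate-regulating hormone gene Fgf23 had 4 counts in uterus and 83 in brain (-4.21 ± 0.63). Fgf8 and the metabolic hormone gene Fgf21 had 0 counts in uterus and 6 and 4 in brain, and Fgf20 had 1 in uterus and 20 in brain. Fgf15, the intestinal bile acid signal, had 6 counts in each organ, those of the uterus all in library 4. Fgf6 had 0 counts in all 8 libraries. These 5 genes did not pass the filter on low counts.

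Per kilobase of merged exons, the ligand order differed between the organs. In uterus Fgf2 came first at 2.89 ± 0.372 CPM per kb (SD, n = 4), followed by Fgf1 at 1.86 ± 0.487, Fgf7 at 1.48 ± 0.191, Fgf9 at 1.28 ± 0.498, Fgf10 at 1.14 ± 0.143 and Fgf18 at 0.708 ± 0.35. Each of these 6 overlapped its neighbour over the 4 libraries. Fgf2 was nevertheless above Fgf1 within each library, and its lowest level of 2.34 lay above all levels of Fgf7, Fgf9, Fgf10 and Fgf18. Fgf18 lay above Fgf17 at 0.167 ± 0.090 without overlap. In brain Fgf1 came first at 21.1 ± 0.591 CPM per kb, followed by Fgf9 at 5.79 ± 0.194 and Fgf10 at 2.36 ± 0.326, each above the next without overlap. Fgf18 at 1.70 ± 0.140 and Fgf2 at 1.59 ± 0.111 overlapped in brain. Fgf2 made up 29.9 ± 2.48% of the summed ligand level in uterus and 4.35 ± 0.253% in brain, and Fgf1 19.0 ± 2.94% in uterus and 57.7 ± 0.915% in brain. The summed ligand level was 9.68 ± 1.05 CPM per kb in uterus and 36.6 ± 1.34 in brain.

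**Figure D2:**
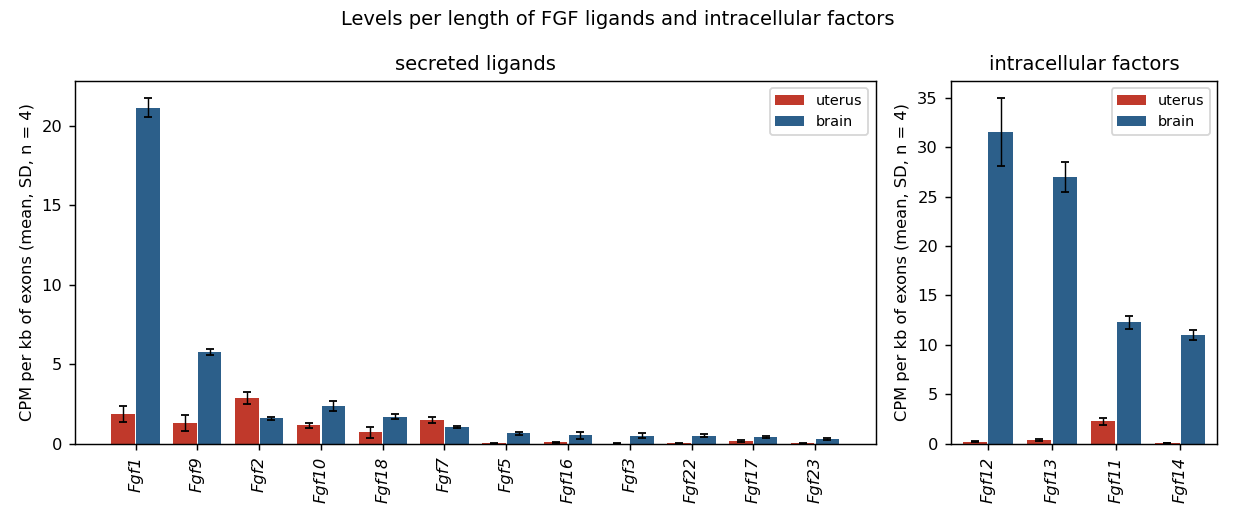
Mean CPM per kb of merged exons, with the SD over 4 libraries as the error bar, for the 12 secreted ligands with the highest levels in brain and the 4 intracellular factors, uterus left of brain. Fgf1 reaches 1.86 in uterus and 21.1 in brain, Fgf2 is higher in uterus (2.89, against 1.59 in brain), and Fgf11 is the tallest intracellular factor of the uterus at 2.25.

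All 4 intracellular factors were higher in brain and past a 2-fold change. Of all genes, 43.6% were called toward brain and 25.8% lay past a 2-fold change toward brain. Fgf12 (ENSMUSG00000022523, chromosome 16, 28160098 to 28753068) stood at 1.06, 1.03, 0.989 and 1.52 CPM in uterus and 219.8, 176, 207 and 179.6 in brain (-7.40 ± 0.14, adjusted p = 2.0e-11). Fgf13, on chromosome X (ENSMUSG00000031137, chromosome X, 59062145 to 59568071), stood at 1.99, 1.34, 1.95 and 1.33 CPM in uterus and 116, 108, 101 and 109 in brain (-6.04 ± 0.13). Fgf14, mutated in an inherited human ataxia (ENSMUSG00000025551, chromosome 14, 123977907 to 124677127), stood at 0.252, 0.212, 0.279 and 0.28 CPM in uterus and 47.9, 45.2, 43.5 and 47.3 in brain (-7.48 ± 0.10). Fgf12 was 169-fold, Fgf13 65.8-fold and Fgf14 178-fold higher in brain, with no overlap between the organs. Fgf12 was highest in uterus library 4, where the 5 neuronal markers summed to 4.76 CPM, against 2.19 to 2.70 in the other uterus libraries, and the part of neurons in the uterine level was not tested. All 5 of these markers had counts in uterus, where 4 were highest in library 4 and Rbfox3 was lowest there.

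Fgf11 (ENSMUSG00000042826, chromosome 11, 69796068 to 69801857) differed less than the other intracellular factors. It stood at 6.39, 6.61, 8.37 and 6.01 CPM in uterus and 36, 35.7, 38 and 39.9 in brain (-2.45 ± 0.11, adjusted p = 5.8e-09). It made up 77.2 ± 2.75% of the summed level of the 4 factors per kilobase in uterus and 15.1 ± 1.14% in brain. Fgf12 made up 6.52 ± 2.0% in uterus and 38.5 ± 2.66% in brain, and Fgf13 made up 14.1 ± 2.39% in uterus and 33.0 ± 1.63% in brain. The sum was 2.91 ± 0.38 CPM per kb in uterus and 81.8 ± 4.07 in brain.

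The receptor genes differed between the organs in both directions, with Fgfr2 at the highest level per kilobase in uterus and Fgfr3 in brain. Fgfr2, whose epithelial splice form binds FGF7 and FGF10 (ENSMUSG00000030849, chromosome 7, 130162451 to 133123350), stood at 128, 122, 123 and 146 CPM in uterus and 76.8, 70.7, 79 and 69 in brain. Every uterus library lay above every brain library, a log2 fold change of 0.81 ± 0.07 (adjusted p = 1.7e-06) that did not pass the test against 2-fold. The annotated gene reaches into Ctbp2, with which it shares 3.04% of its exon bases, and counts per gene do not separate its splice forms. Fgfr3, whose loss causes overgrowth of bone in mice (ENSMUSG00000054252, chromosome 5, 33721674 to 33737068), stood at 10.1, 10, 10.1 and 8.69 CPM in uterus and 147, 162, 162 and 156 in brain. It was 16.1-fold higher in brain (-4.01 ± 0.07, adjusted p = 1.1e-11), and the 2 organs were far apart in every library. The gene G630022F23Rik on the opposite strand shares 13.9% of its exon bases. The 4 astrocyte markers summed to 18.3 to 23.9 CPM in uterus and 1269 to 1370 in brain, and their part in the level of Fgfr3 was not tested.

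Fgfr1, expressed in mesenchyme and neurons (ENSMUSG00000031565, chromosome 8, 25513654 to 25575718), stood at 66.7, 65.5, 65.1 and 51.8 CPM in uterus and 125, 124, 133 and 130.4 in brain. Brain was 2.06-fold higher (-1.04 ± 0.08, adjusted p = 4.9e-07; 0.239 against 2-fold), and uterus library 4 was the lowest. Fgfr4, the bile acid-regulating receptor of liver (ENSMUSG00000005320, chromosome 13, 55152640 to 55168759), stood at 0.831, 0.635, 0.862 and 0.932 CPM in uterus and 0, 0.0923, 0.162 and 0.0473 in brain. It was under 1 CPM in all libraries, with 134 counts in uterus and 13 in brain, and the log2 fold change was 3.34 ± 0.52, or 4.00 without brain library 3. As the 1 member past a 2-fold change toward uterus, Fgfr4 passed the filter only through uterus, so its call is no separate evidence of a difference. Fgfrl1, a receptor-like protein without a kinase domain, averaged 18.7 ± 1.04 CPM in uterus and 17 ± 1.5 in brain (SD, n = 4 each), and the organs overlapped. Its log2 fold change of 0.13 ± 0.08 did not pass (adjusted p = 0.164; limma-voom 95% interval -0.05 to 0.31).

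Per kilobase, the receptors ranked differently in each organ. In uterus Fgfr2 came first at 12.6 ± 1.09 CPM per kb, Fgfrl1 at 6.71 ± 0.374 and Fgfr1 at 6.31 ± 0.708 overlapped, and Fgfr3 at 1.36 ± 0.099 and Fgfr4 at 0.23 ± 0.036 followed. In brain Fgfr3 came first at 21.9 ± 1.01 CPM per kb, then Fgfr1 at 13.0 ± 0.417, Fgfr2 at 7.15 ± 0.464 and Fgfrl1 at 6.12 ± 0.538, with no overlap between neighbours. As a share of the 4 kinase receptors, Fgfr2 took 61.4 ± 4.30% in uterus and 17 ± 1.07% in brain, and Fgfr3 took 6.66 ± 0.572% in uterus and 52.1 ± 1.37% in brain. Fgfr1 took 30.9 ± 3.83% in uterus and 30.9 ± 0.758% in brain. Uterus library 4 stood apart, with 25.1% Fgfr1, against 32.5 to 33.2% in the other 3, and with 67.8% Fgfr2, against 58.9 to 59.6%. Without it Fgfr1 averaged 32.8% and Fgfr2 59.2% in uterus, and the part of smooth muscle and epithelium in these shares, whose marker sums for this library are given with Fgf9, was not tested.

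**Figure D3:**
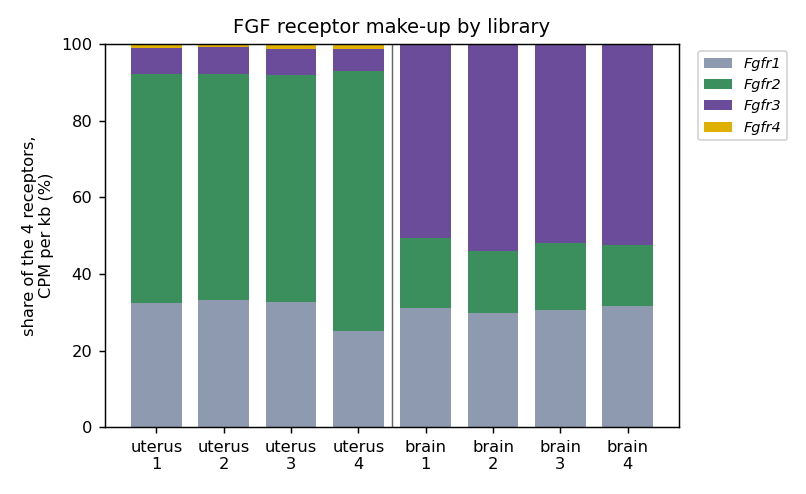
Share of Fgfr1, Fgfr2, Fgfr3 and Fgfr4 in their summed CPM per kb, in percent, as 1 stacked bar per library with the 4 uterus libraries left of the 4 brain libraries. Fgfr2 holds 58.9 to 67.8% in uterus and 16.0 to 18.3% in brain, Fgfr3 holds 5.81 to 7.01% in uterus and 50.5 to 53.8% in brain, and Fgfr1 is at 25.1 to 33.2% in uterus and 29.9 to 31.7% in brain.

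Ratios of 2 members within a library cancel the scaling between the organs, apart from the small value added to each level, and 8 were compared. Fgfr2 over Fgfr1, as a log2 ratio of CPM per kb with 0.1 added to each, was 0.87, 0.82, 0.85 and 1.41 in uterus and -0.76, -0.87, -0.81 and -0.97 in brain. Fgfr1 was thus the lower of the pair in all uterus libraries and the higher in all brain libraries. The difference, uterus minus brain, was 1.84 (exact permutation p = 0.0286, two-sided, the smallest that 4 against 4 libraries can give; adjusted p = 0.0327 over the 8 ratios). Fgfr3 over Fgfr1 was -2.13 ± 0.07 in uterus and 0.75 ± 0.07 in brain, a difference of -2.88 with the same exact p. Fgf2 over Fgf1 was 0.63 ± 0.27 in uterus and -3.65 ± 0.10 in brain, the largest difference of the 8, at 4.28 with the same exact p. Fgf10 over Fgf7 was -0.35 ± 0.32 in uterus and 1.08 ± 0.28 in brain, a difference of -1.43 with the same exact p, and the organs did not overlap. In the pairs Fgfr2 and Fgfr1, Fgf2 and Fgf1, and Fgf10 and Fgf7, the single genes already separated the organs in opposite directions. Their ratios therefore had to reach the smallest exact p, which is no further evidence of a difference. Fgf18 over Fgf9 was -0.57, -1.63, -1.80 and 0.88 in uterus and -1.71 ± 0.14 in brain. Its difference of 0.93 did not pass (exact permutation p = 0.229), became 0.38 without uterus library 4 and 1.27 without uterus library 3. Fgf13 over Fgf14 differed by 0.36 with the same smallest exact p, but Fgf14 in uterus, at 0.061 CPM per kb, lay below the added 0.1, and the difference was 1.25 with 0.01 added and -0.56 with 0.5 added.

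**Figure D4:**
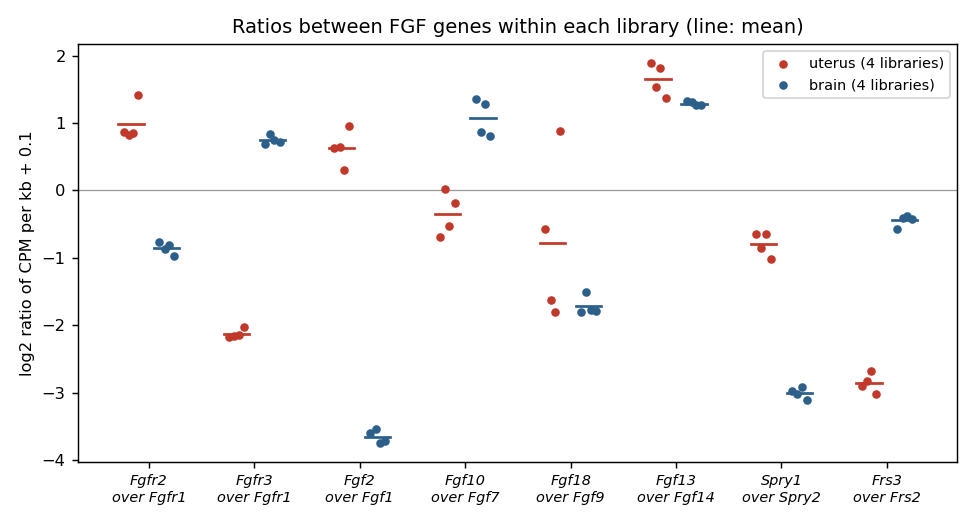
Log2 ratio of CPM per kb (0.1 added to each gene) for 8 pairs of FGF genes, with 1 point per library, the mean as a line, and uterus left of brain. The organs do not overlap in 7 of the 8 pairs. The share over all pairs of genes was not computed, but 84.1% of single genes tested did not overlap either. The 7 include Fgf13 over Fgf14, whose difference changes direction with the value added. For Fgf18 over Fgf9 the uterus points spread from -1.80 to 0.88 around the brain points near -1.71.

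Fgfbp1 and the co-receptor gene Klb were scarce, whereas Fgfbp3, at 3.37 ± 1.52 CPM per kb in uterus and 5.06 ± 1.54 in brain, was not. Fgfbp1, a carrier that releases FGFs from the matrix (ENSMUSG00000048373, chromosome 5, 43978858 to 43981779), had 3 counts in uterus and 1.75, 1.89, 1.66 and 2.08 CPM in brain, a ratio of brain to uterus of 101 (95% interval 34.4 to 495). Its fitted log2 fold change of -6.45 moved to -7.35 without uterus library 4, which held 2 of the 3 uterus counts. Fgfbp3, a related carrier (ENSMUSG00000047632, chromosome 19, 36917550 to 36919615), stood at 7.2, 3.93, 9.18 and 3.54 CPM in uterus and 11.9, 7.31, 10.6 and 6.06 in brain. Libraries 1 and 3 were the highest in both organs, the organs overlapped, and the log2 fold change of -0.59 ± 0.33 did not pass (adjusted p = 0.117; limma-voom 95% interval -1.37 to 0.06), though it passed without uterus library 3 at -0.87. Klb, the co-receptor of FGF15 and FGF21 (ENSMUSG00000029195, chromosome 5, 65348314 to 65384007), stood at 0.227, 0.235, 0.634 and 0.256 CPM in uterus and 1.08, 0.83, 1.11 and 0.686 in brain (-1.45 ± 0.38, adjusted p = 0.00421). Its uterine level was highest in library 3, where the choroid plexus marker Ttr stood at 17.8 CPM, against 4.10 to 9.71 in the other uterus libraries. The other choroid plexus markers, Kl at 0.0507 CPM and Folr1 at 0.457, lay there within the range of the other uterus libraries (0.0235 to 0.101 for Kl and 0.400 to 0.513 for Folr1), and the part of this tissue in the result was not tested.

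The adapters differed from one another. Frs2, the main docking protein of the receptors (ENSMUSG00000020170, chromosome 10, 117069427 to 117148534), averaged 82.6 ± 5.42 CPM in uterus and 76.8 ± 3.19 in brain, with overlap and a log2 fold change of 0.10 ± 0.06 (adjusted p = 0.11; limma-voom 95% interval -0.02 to 0.23), and passed without uterus library 4 at 0.16. A Galnt1 transcript matches it at 98.6% over 427 bases, so reads there cannot be placed with certainty. Frs3 (ENSMUSG00000023266, chromosome 17, 47689030 to 47704286) stood at 3.98, 3.74, 4.49 and 3.1 CPM in uterus and 18.2, 20.6, 20 and 21.6 in brain (-2.40 ± 0.12, adjusted p = 2.2e-08). Frs3 over Frs2 was -2.86 ± 0.14 in uterus and -0.44 ± 0.08 in brain, a difference of -2.41 (exact permutation p = 0.0286, adjusted p = 0.0327). The antisense gene Frs3os shares 16.3% of the exon bases of Frs3.

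The sprouty inhibitors were also unequal. Spry1, which restrains branching of the ureteric bud in mice (ENSMUSG00000037211, chromosome 3, 37639947 to 37644598), stood at 19.1, 15.4, 16.1 and 13.8 CPM in uterus and 7.64, 8.26, 7.74 and 7.07 in brain, 2.1-fold higher in uterus with no overlap (1.07 ± 0.11, adjusted p = 7.4e-06), though not past the test against 2-fold (adjusted p = 0.217). Spry2 (ENSMUSG00000022114, chromosome 14, 105891947 to 105896819) stood at 21.7, 20.1, 18.1 and 20.2 CPM in uterus and 44.4, 49.6, 43.2 and 45.5 in brain, 2.28-fold higher in brain (-1.19 ± 0.07, adjusted p = 7.0e-08). Spry4 (ENSMUSG00000024427, chromosome 18, 38586247 to 38601415) stood at 16.8, 17.8, 16.4 and 14.6 CPM in uterus and 19.3, 23, 24 and 20.4 in brain, a smaller difference in the same direction (-0.40 ± 0.09, adjusted p = 0.00241). On the opposite strand, Gm42922 shares 24.4% of the exon bases of Spry1. The Spry4 call ended with upper-quartile scaling (-0.15) and library-size scaling (-0.14). Spry1 over Spry2 was -0.79 ± 0.17 in uterus and -3.00 ± 0.08 in brain, a difference of 2.22 (exact permutation p = 0.0286, adjusted p = 0.0327). Since Spry1 and Spry2 each separated the organs in opposite directions, their ratio had to reach this p, which is no further evidence. Per kilobase Spry2 was the highest of the 3 in both organs, with 51.7 ± 2.59% of their sum in uterus and 75.2 ± 1.65% in brain, while Spry1, at 29.7 ± 2.32% in uterus and 9.08% in brain, lay above Spry4 in uterus and below it in brain.

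**Figure D5:**
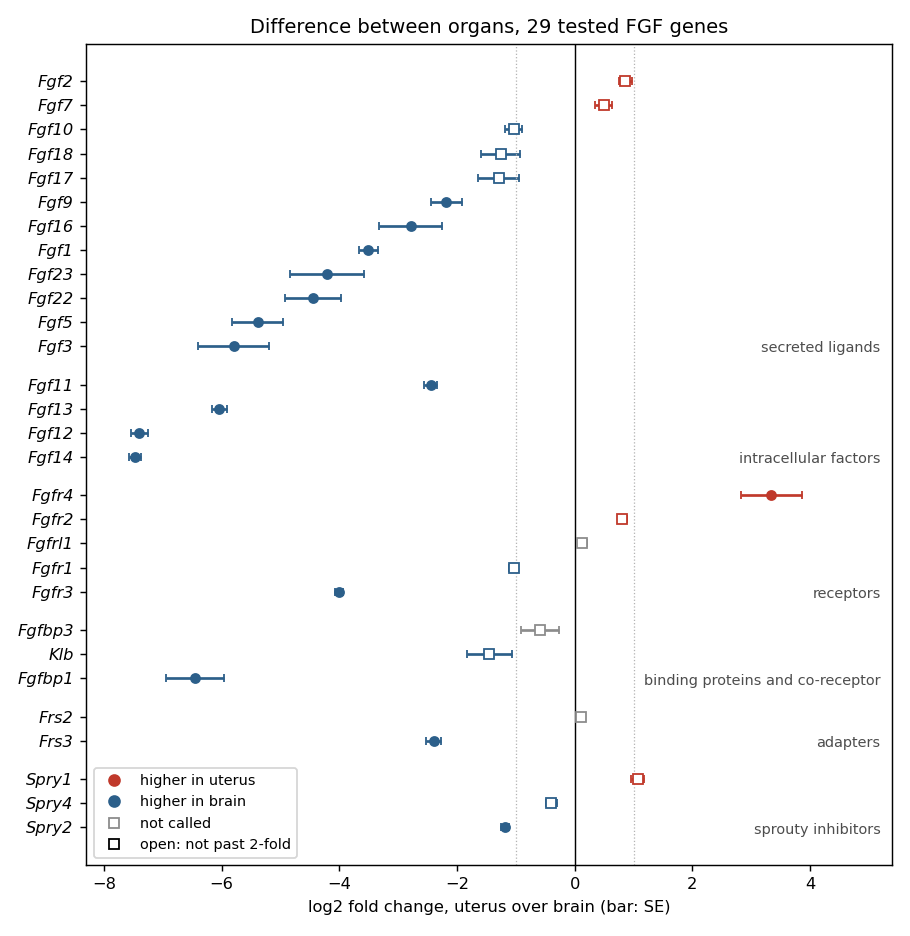
Log2 fold change, uterus over brain, with its SE as the bar, for the 29 tested FGF genes by role. Filled circles passed the test against a 2-fold change and open squares did not, red marks higher in uterus, blue higher in brain and grey not called. The points run from -7.48 for Fgf14 to 3.34 for Fgfr4.

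Other genes of the pathway, none of them members, were counted in 5 lists of 64 genes in all. The test called 20 toward uterus and 39 toward brain, 5 did not pass, and the median log2 fold change was -0.75. Of all genes 43.5% were called toward uterus and 43.6% toward brain, with a median of 0.01. All 8 co-receptors and receptor partners were higher in brain, led by Kl, the co-receptor of FGF23, at 0.0554 ± 0.0325 CPM in uterus and 37.7 ± 5.59 in brain (-9.35 ± 0.24). Kl had 9 counts over the uterus libraries, so it passed the filter on low counts only through brain and had to differ. The adhesion genes Ncam1 (-4.70 ± 0.10) and L1cam (-4.69 ± 0.11) followed. Of 23 genes for heparan sulfate and matrix partners, 12 were called toward uterus and 10 toward brain, beside 43.5% toward uterus and 43.6% toward brain of all genes, and the median was 0.23. Sdc1, an epithelial heparan sulfate proteoglycan, averaged 114 ± 13.5 CPM in uterus and 3.29 ± 0.299 in brain (5.11 ± 0.11). The heparan sulfate-modifying enzyme genes Ndst4 (-8.09 ± 0.34) and Hs6st3 (-6.79 ± 0.29) differed toward brain. Ndst4 had 14 counts and Hs6st3 15 over the uterus libraries, with under 10 in each library. They too passed the filter only through brain and had to differ.

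Of 17 adapters and kinases of the cascade, 5 were called toward uterus and 10 toward brain, and the median was -0.70. Beside this list and the shorter ones below, 43.5% of all genes were called toward uterus and 43.6% toward brain. The adapter gene Shc1 averaged 149 ± 8.54 CPM in uterus and 17.7 ± 0.386 in brain (3.08 ± 0.06), while the kinase gene Map2k1 (-2.26 ± 0.05) was higher in brain. Of 9 feedback regulators, 1 was called toward uterus and 7 toward brain, and the median was -1.79. The one toward uterus was Il17rd, an inhibitor of FGF signalling, at 34.9 ± 3.32 CPM in uterus and 8.68 ± 0.494 in brain (log2 fold change 2.0 ± 0.09), and Spry3 (-3.52 ± 0.13) and Dusp5 (-2.12 ± 0.14) led toward brain. Of 7 ETS factors and target genes, 2 were called toward uterus and 4 toward brain, and the median was -0.89. Myc, a growth-promoting transcription factor, averaged 129.6 ± 11.7 CPM in uterus and 3.72 ± 0.592 in brain (5.12 ± 0.12), while the ETS factor genes Etv1 (-5.22 ± 0.13) and Etv4 (-2.97 ± 0.16) were higher in brain.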

How the data were processed

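The authors deposited raw counts of reads per Ensembl gene for 4 uterus and 4 brain libraries. Per the submitters' processing notes, FastQC, HISAT2 2.0.3, featureCounts and edgeR were used, on GRCm38.p5. Which annotation was counted, with which strand option, and what became of multi-mapping reads is not given in the sources used here. Coordinates and exon lengths came from GENCODE M21 on GRCm38, which held all 34 members. Counts were filtered with filterByExpr by organ, scaled by TMM (factors 1.07 to 1.11 in uterus and 0.907 to 0.924 in brain) and fitted over 16074 genes with edgeR 4.0.16 in R 4.3.3. The quasi-likelihood test was two-sided with Benjamini-Hochberg adjustment over all genes, called at 0.05, with glmTreat against a 2-fold change. The SE is the unshrunken log2 fold change over the root of its F statistic. DESeq2 1.42.0 and limma 3.58.1 were alternatives, and ratios were compared by exact permutation in scipy 1.17.1. Scaling by library size, upper quartile or RLE was also tried, as were no filter or one of 1 CPM, a threshold of 0.01, a replicate block, other added values and lengths for ratios and shares, and leaving out each library. The model was run on simulated counts in which few genes differed and none had a low mean. That setting differs from these data, so it does not check the scaling or the calls at low counts. All members are named, and of each other pathway list the 3 called genes that changed most, provided their mean reached 1 CPM in either organ. One result under this rule is not reported here. Members and lists were chosen with earlier results of these data known. Ratios for 1 to 3 counts carry exact 95% intervals, which cover counting error only. Transcripts alike over 150 bases at 98% identity were searched with BLAST+. Outside overlapping genes the search found 1, for Frs2, a Galnt1 transcript.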

Additional observations from a re-analysis of the deposited data

Results flagged for a closer look

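In groups of 4 libraries, a single library lay far from the other 3 in 7 of 58 groups, all of them in uterus. Chance flags about 1 in 20 groups of continuous, normally distributed values. Small counts, such as those of Fgf5, are not of that kind, so the 7 cannot be set against that rate. Uterus library 4 accounted for 4 of the 7. It held 1.52 CPM of Fgf12, above 0.989 to 1.06 in the others, 2.52 CPM of Fgf9, below 6.65 to 7.41, 51.8 CPM of Fgfr1, below 65.1 to 66.7, and 8.69 CPM of Fgfr3, below 10.0 to 10.1. In uterus library 2, Fgf2 stood at 15.9 CPM, below 20.7 to 21.2 in the others, and Fgf5 at 0 CPM, where the others held 0.0466 to 0.0507, each equal to 2 counts. In uterus library 3, Klb stood at 0.634 CPM, above 0.227 to 0.256 in the others.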

How the results depend on the processing

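The main fit called 5 members higher in uterus and 21 higher in brain. Over all alternatives these counts ran from 4 to 7 for uterus and from 15 to 22 for brain. When each library was left out, they ran from 5 to 6 for uterus and 21 to 22 for brain. The lows of 4 and 15 came from requiring 1 CPM in 4 libraries. That filter left Fgfr4, Fgf3, Fgf16, Fgf17, Fgf22, Fgf23 and Klb untested, and no member that stayed in the test lost its call. Upper-quartile and library-size scaling put the all-gene median at 0.27 (log2, 0.01 with TMM), and both called Fgfrl1 (0.39 in both) and Frs2 (0.36 in both) higher in uterus and no longer Spry4. No tested member changed direction under any scaling. Past a 2-fold change toward brain, the count of 15 was lowest at 11 when 1 CPM in 4 libraries was required. It was highest at 17 without uterus library 3. Past a 2-fold change toward uterus, the count of 1 became 2 with upper-quartile scaling, 2 with library-size scaling, 2 in a subset of libraries chosen after the data were seen (uterus 1 and 3, brain 2 to 4), and 0 when 1 CPM in 4 libraries was required, which removes Fgfr4. In that subset Fgfbp3 reversed to 0.06, Fgf17 (-1.01) and Klb (-1.0) lost their calls and Frs2 (0.19) gained one. With a replicate block, 5 members were higher in uterus and 22 in brain, since Fgfbp3 was called at -0.64. The labels do not pair the libraries, the deviations of same-numbered libraries correlated at -0.05, 0.00, 0.08 and 0.07, not every library correlated best with its own number, and with the block no other call of a member changed. The ratio of Fgf18 over Fgf9 passed with 0.5 CPM per kb added (0.97), and that of Fgf13 over Fgf14 reversed to -0.56, since the added value exceeds the level of Fgf14 in uterus. With the longest transcript as length, receptor shares were 66.2% in uterus and 21.1% in brain for Fgfr2, 5.2% in uterus and 46.7% in brain for Fgfr3, 28.0% in uterus and 32.2% in brain for Fgfr1, which were equal at 30.9% with merged exons, and 0.554% in uterus for Fgfr4, and the order in each organ was the same. Below about 0.07 CPM, the level of 3 counts, a difference between single libraries cannot be told from counting error at this depth.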
